A study of Caenorhabditis elegans with 2 samples.

Results

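In chromatin from mid-stage Caenorhabditis elegans embryos, 57 of the 346 nuclear genes annotated as small nucleolar RNAs (snoRNAs) had a T22C8.4-eGFP peak at or beside them, which is 16.5% (exact 95% interval 12.7% to 20.8%). These genes were chosen by the position of the peak summit, the base with the highest signal: the summit had to lie inside the gene or within 150 bp of it. The same distance held for 1946 of all 46890 annotated nuclear genes (4.15%). Because the summits chose the genes, these counts and the peak values below describe them and test nothing. The 57 genes carried 58 of the 2415 summits. The neighbours C51F7.3 and C51F7.4 shared 1 summit, and ZK20.9 and Y49E10.36 had 2 each.

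The data were 2 biological replicates of chromatin immunoprecipitation sequencing (ChIP-seq) with an antibody to GFP, all of 1 group. The embryos were of strain OP785, whose transgene wgIs785 carries T22C8.4 fused to TY1, EGFP and 3xFLAG tags together with unc-119(+), in an unc-119 (tm4063) background. They were staged by egg bleaching, with an age given as 2 hours, and whole embryos were used, so a peak does not say in which cells the protein was bound. No untagged strain or other tagged protein was analysed here, and whether the same genes would carry peaks in such chromatin was not tested. Peak lists hold no read counts, so the depth is unknown. Intervals cover the counting of genes or peaks only and treat them as independent.

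SnoRNAs guide the chemical modification of other RNAs, chiefly ribosomal RNA: box C/D snoRNAs direct methylation of the ribose and box H/ACA snoRNAs direct the conversion of uridine to pseudouridine. Many lie in introns of protein-coding host genes and are released from the spliced intron, while others are transcribed on their own. RNA polymerase III transcribes tRNA genes from promoter elements inside the gene, called box A and box B, which the factor TFIIIC binds, and it stops at a short run of T. Some snoRNA genes of C. elegans are known to be transcribed by RNA polymerase III as well.

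Upstream of the snoRNA at 8 of the 12 strongest peaks lay sequences resembling both promoter elements of tRNA genes, scored together as described below. At the other 4 the match was too weak to count by the limit given below. Below, the first lines show 100 bases from 80 bp upstream of the annotated 5′ end to 20 bases inside the gene. They read on the gene's own strand and cover 6 members among the 12 strongest peaks, picked because they reached that limit. Capitals mark the matches to box A (left) and box B (right), found with letter frequencies from 200 distinct C. elegans tRNA gene sequences, whose commonest letters were TGGCCTAGTGG in box A and GGTTCGAATCC in box B. Sequences are from the RefSeq WBcel235 (ce11) assembly. In the order of the lines, the windows are chrII:11960818-11960917, plus strand, chrV:11314178-11314277, plus strand, chrV:15873907-15874006, minus strand, chrV:19643168-19643267, minus strand, chrV:11782912-11783011, plus strand and chrIV:8253014-8253113, plus strand. The last line is a whole tRNA gene, WBGene00023188 (chrIV:2639809-2639880, minus strand), which had a summit 40 bp upstream of it with a signal value of 540 and is shown for comparison.
W03C9.9: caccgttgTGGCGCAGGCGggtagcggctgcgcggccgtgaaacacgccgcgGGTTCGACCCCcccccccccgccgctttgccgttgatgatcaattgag
T03F7.8: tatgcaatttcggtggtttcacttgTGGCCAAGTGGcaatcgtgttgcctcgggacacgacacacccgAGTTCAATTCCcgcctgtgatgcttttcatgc
T06C12.16: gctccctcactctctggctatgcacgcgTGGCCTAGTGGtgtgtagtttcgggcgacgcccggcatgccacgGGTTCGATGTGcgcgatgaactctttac
Y43F8C.22: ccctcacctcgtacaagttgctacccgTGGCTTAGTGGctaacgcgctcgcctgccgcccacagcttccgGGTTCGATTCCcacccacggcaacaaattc
F55A11.10: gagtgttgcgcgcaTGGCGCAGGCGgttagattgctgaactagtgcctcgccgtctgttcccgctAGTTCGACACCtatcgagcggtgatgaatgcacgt
H09I01.2: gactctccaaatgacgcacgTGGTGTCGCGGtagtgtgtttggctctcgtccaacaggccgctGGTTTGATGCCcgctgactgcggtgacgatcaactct
WBGene00023188: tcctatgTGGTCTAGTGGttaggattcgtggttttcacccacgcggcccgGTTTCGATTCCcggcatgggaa
In these snoRNA genes box A lay upstream of the annotated RNA and box B close to its 5′ end, reaching its first bases in T06C12.16 and Y43F8C.22, whereas in the tRNA gene both lie inside the gene. The start of box B followed the start of box A by 43 or 44 bp in 5 of the 6, by 51 bp in F55A11.10, and by 43 bp in the tRNA gene.

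The strongest peak of the group spanned a pair of neighbouring snoRNA genes. C51F7.4 and C51F7.3 follow each other on the plus strand of chromosome V, both within frm-7. The line below runs from the first base of C51F7.4 to the last base of C51F7.3 (chrV:12303599-12303783, plus strand).
C51F7.4 to C51F7.3: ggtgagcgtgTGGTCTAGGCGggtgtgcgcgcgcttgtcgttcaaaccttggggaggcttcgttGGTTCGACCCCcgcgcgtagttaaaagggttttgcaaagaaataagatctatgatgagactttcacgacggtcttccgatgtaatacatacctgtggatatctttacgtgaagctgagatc
The boxes that precede C51F7.3 lay within the annotated body of C51F7.4, and the shared summit was 77 bp upstream of the 5′ end of C51F7.3 and 32 bp inside C51F7.4.

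The strength of the upstream elements was scored as the sum of the best box A match and the best box B match starting 25 to 75 bp after it, on the gene's strand, from 120 bp upstream to 20 bp inside. A pair was counted when its score reached 17.7, the 1st percentile of the scores of tRNA genes in their own sequence. By this measure 40 of the 57 members had a pair (70.2%, 56.6% to 81.6%), against 12 of the 289 snoRNA genes without a summit (4.15%, 2.16% to 7.14%). Among all annotated nuclear genes 93 had one (0.198%), 52 of them snoRNA genes. Among 19973 protein-coding genes 13 had one (0.0651%). On the opposite strand no snoRNA gene reached the limit, with or without a summit. Read the other way, 40 of the 52 snoRNA genes with a pair had a summit (76.9%, 63.2% to 87.5%), against 17 of the 294 without a pair (5.78%, 3.4% to 9.10%). The intervals of these groups of snoRNA genes did not overlap in either reading. Of the 612 tRNA genes, whose sequences gave the boxes, 223 had a summit within the same distance. The pair search was set up after the sequences at the peaks had been seen, and no test was made of it.

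**Figure D1:**
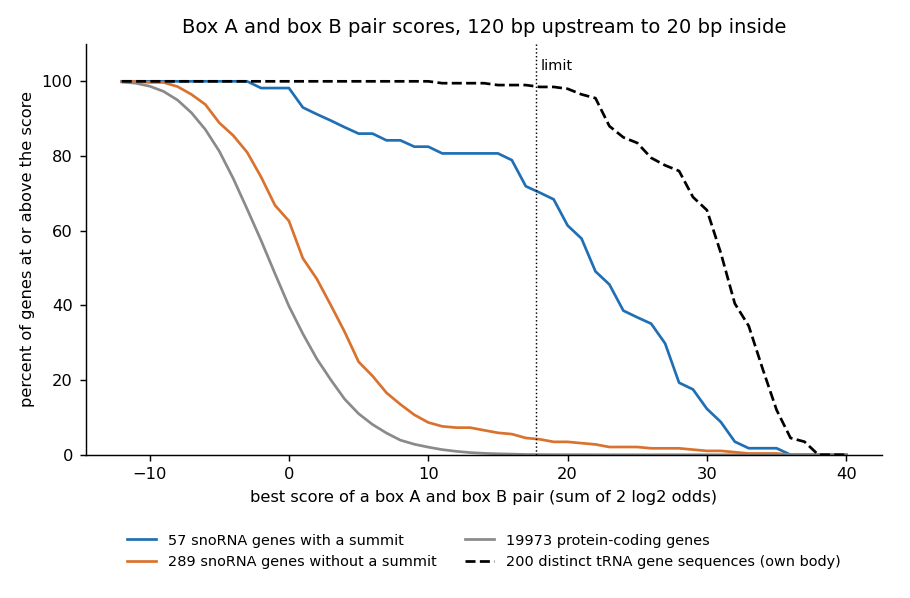
Each line gives the percent of genes (vertical axis) whose best box A and box B pair reached a given score (horizontal axis, sum of 2 log2 odds), for 57 snoRNA genes with a summit, 289 without, 19973 protein-coding genes and 200 distinct tRNA gene sequences, with the limit of 17.7 dotted. At the limit the line stands at 70.2% for snoRNA genes with a summit and at 4.15% for those without, and the median scores were 21.9 and 1.73.

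The score fell short of the limit by little in some of the members counted as lacking the pair. ZK265.10 scored 17.6 with a strong box A match and a weak box B match. D1046.6, in an intron of cfim-2, scored 15.8 (chrIV:8927185-8927284, plus strand). Its boxes are marked in the line below although they are under the limit. They start 32 bp apart, against 38 to 54 bp in the members with a pair. ZK994.7, in an intron of pxn-1 (chrV:8500499-8500598, plus strand), scored 2.88, and B0334.12, in an intron of twk-5 on the opposite strand (chrII:11484603-11484702, plus strand), scored 8.42. These 2 are shown without capitals because they had no pair.
D1046.6: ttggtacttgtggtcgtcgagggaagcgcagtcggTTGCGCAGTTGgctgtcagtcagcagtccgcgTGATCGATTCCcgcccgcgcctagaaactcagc
ZK994.7: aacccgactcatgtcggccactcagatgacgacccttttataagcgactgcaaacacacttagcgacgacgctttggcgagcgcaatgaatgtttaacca
B0334.12: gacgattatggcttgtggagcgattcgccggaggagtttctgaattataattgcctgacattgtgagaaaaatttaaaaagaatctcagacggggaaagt
The 17 members without the pair therefore held near misses by score as well as genes with nothing similar. Near misses by score also occurred among snoRNA genes without a summit, such as Y41E3.464 (16.6) and W06A7.12 (16.5). The boxes of these 2 started 69 bp and 31 bp apart. A score of at least 15 was reached by 80.7% of members and 5.88% of snoRNA genes without a summit. Fixed letters gave a coarser view of the same windows, read on both strands. The box A core TGGCNNAG was in 21 of 57 members (36.8%), 22 of 289 snoRNA genes without a summit (7.61%) and 3.34% of all gene windows of the same length. The box B core GTTCNANNC was in 26 members (45.6%), 16 genes without a summit (5.54%) and 4.03% of all genes.

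The geometry of the pair was tight. Among the 40 members with a pair, box A started at a median of 59 bp upstream of the snoRNA 5′ end (quartiles −64.2 and −56) and box B at a median of 15 bp upstream (quartiles −20 and −12.8). Box B started 42 to 45 bp after box A in 34 of the 40, most often 43 bp (17 genes), over a range of 38 to 54 bp. In tRNA genes the commonest spacing was also 43 bp (80 of 200 distinct sequences), and 134 of the 200 fell between 42 and 45 bp. In 33 of the 40 members the summit lay between the first base of box A and the last base of box B. It was a median of 5.5 bp downstream of the middle of box A (quartiles −3.25 and 17.2), close to the 7.0 bp seen in the 223 tRNA genes with a summit (quartiles −3.50 and 22).

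Summits fell mostly upstream of the snoRNA, with and without the pair, whereas at tRNA genes the median summit was 21.0 bp inside the gene. The median summit of the members was 46 bp upstream of the 5′ end (quartiles −57.0 and −29.0, range −137 to 278). Upstream summits made up 52 of the 57, with 2 inside the gene and 3 downstream of it, and 44 (77.2%) lay 75 to 20 bp upstream. With the pair, 39 of 40 were upstream and 1 was inside. Without the pair, 13 of 17 were upstream, 1 was inside and 3 were downstream, at B0334.12, F58D5.12 and R08C7.19. The median stayed in place in the separate lists, at −47.5 bp in that of replicate 1 and −45.0 bp in that of replicate 2. For the 43 members in both lists, the 2 summits of a gene differed by a median of 10 bp and by at most 48 bp.

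**Figure D2:**
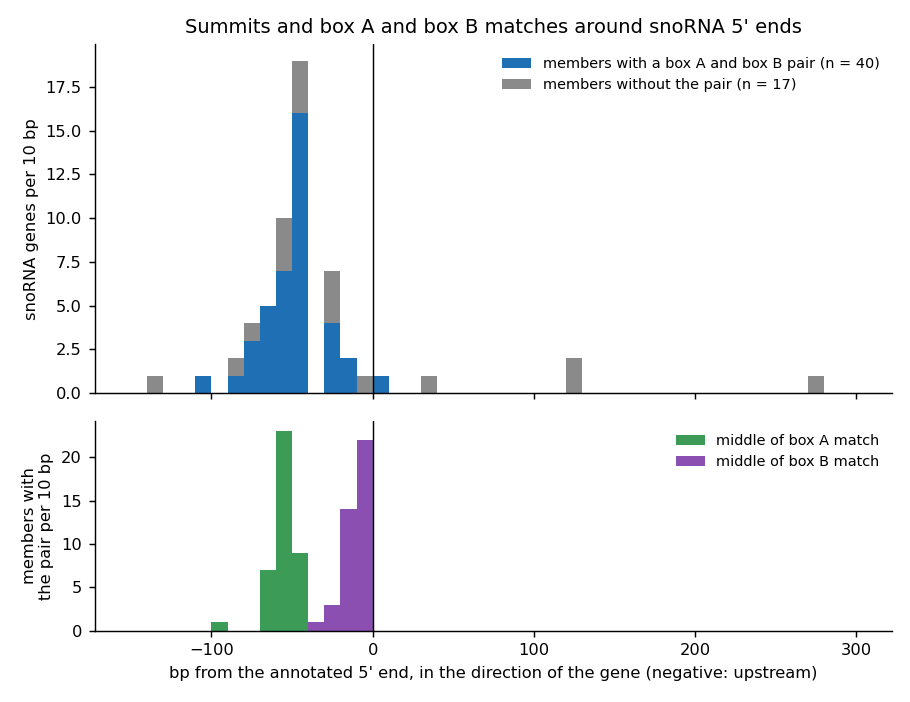
The upper panel counts snoRNA genes with a summit by the distance of the nearest summit from the annotated 5′ end (bp, negative upstream), split into 40 with and 17 without the box pair, and the lower panel counts the middles of the box A and box B matches of the 40. Summits gather around the median of −46 bp, over the box A matches and short of the box B matches, which lie next to the 5′ end.

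The peak signal is the value of the authors' peak caller, which has no unit and is not scaled between lists. C51F7.3 and C51F7.4 shared the highest of the group, 852 in the main list, 441 in that of replicate 1 and 421 in that of replicate 2. It ranked 7 among all main-list peaks. W03C9.9, on chromosome II outside any protein-coding gene, had 664 in the main list, 343 in replicate 1 and 314 in replicate 2, with the summit 61 bp upstream. In the same order, T03F7.8, which lies within cutl-18 in an intron on the opposite strand, had signal values of 614, 330 and 272. T06C12.16, on chromosome V outside protein-coding genes, had 593, 308 and 277. These 4 loci ranked 8 to 19 in the thresholded list of replicate 1 and 6 to 23 in that of replicate 2. ZK265.10, outside protein-coding genes on chromosome I, followed with 589, 279 and 302, and ZK994.7 with 460, 235 and 234. The summit of ZK994.7, 5 bp upstream of the gene, lay closer to it than any other of the 12 strongest apart from the one inside C51F7.4.

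The next members were within a narrow band. Y43F8C.22, in an intron of Y43F8C.7, had 401 in the main list, 183 in replicate 1 and 219 in replicate 2, and the highest pair score of the named members, 35.8. D1046.6 had 401, 175 and 220. F55A11.10, in an intron of F55A11.6, had 394, 206 and 187. T02E1.9, outside protein-coding genes on chromosome I, had 394, 205 and 189 and a pair score of 26.5. H09I01.2, outside protein-coding genes on chromosome IV, had 346, 165 and 171. B0334.12 had 333, 161 and 178, with the summit 127 bp downstream of its 5′ end and thus past its 3′ end. Replicate 2 was the higher of the 2 values in ZK265.10, Y43F8C.22, D1046.6, H09I01.2 and B0334.12, and replicate 1 in the other 8 of the 13 genes, though values of separate lists are not on 1 scale.

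**Figure D3:**
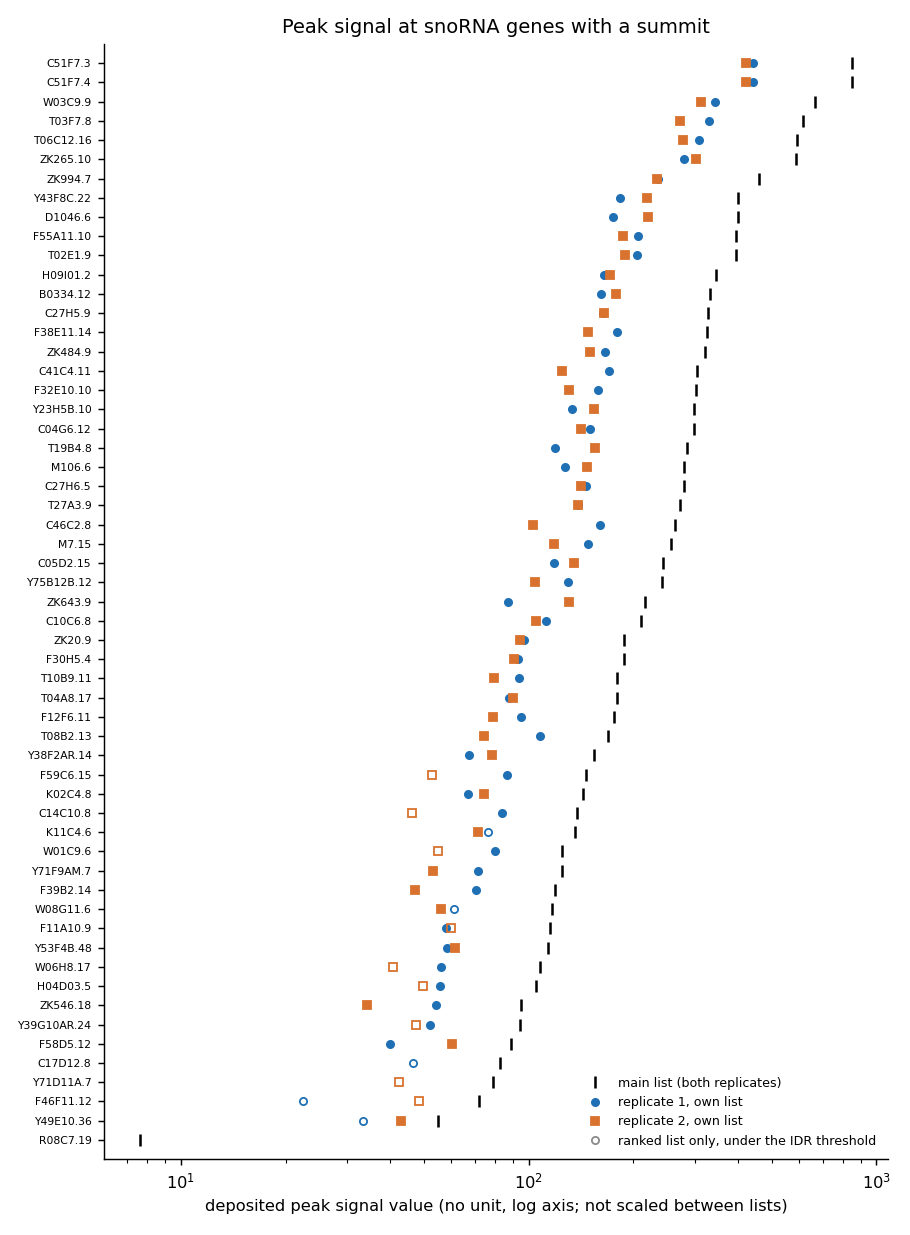
Each row is a snoRNA gene with a summit, ordered by main-list signal, with the deposited signal value (log axis, no unit) in the main list (bar), replicate 1 (circle) and replicate 2 (square), open where the entry was in the ranked list only. The values run from 852 at C51F7.3 and C51F7.4 to 7.62 at R08C7.19, and the replicates lie close together in most rows.

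Across the group, 43 of the 57 members (75.4%) had a summit within 150 bp in both replicates' own thresholded lists, 7 in replicate 1 only, 3 in replicate 2 only and 4 in neither. Each replicate's list alone gave 52 snoRNA genes in replicate 1 (15%, against 3.01% of all genes) and 47 in replicate 2 (13.6%, against 2.50%). The conservative list, also made from both replicates, gave 56 (16.2%, against 3.99%). The signal values of the replicates ordered the 43 genes similarly (Spearman rho 0.916, given as a description). Counted as peaks, 44 of the 58 at snoRNA genes overlapped a peak in both replicates' lists (75.9%, 62.8% to 86.1%), against 978 of the other 2357 main-list peaks (41.5%, 39.5% to 43.5%). Their median signal was 199 (quartiles 117 and 318) against 104 (quartiles 82.9 and 150), and 49 of the 57 genes had a peak in the stronger part of the main list, split at its median. The shares were not matched on signal.

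Several of the weakest members had an entry in only 1 replicate's own lists or in none, although all of them but F46F11.12 were in the conservative list. R08C7.19 had a main-list value of 7.62, its summit was 145 bp past the gene, close to the limit, and it had no entry in any replicate list. F46F11.12 was the 1 member missing from the conservative list. It had 71.9 in the main list and, in the ranked lists, 22.4 in replicate 1, at the 37.7 percentile of its ranks counted from the strongest, and 48.5 in replicate 2, at the 4.02 percentile. C17D12.8 had 82.9 and an entry in the ranked list of replicate 1 only, and Y71D11A.7 had 79.2 and one in that of replicate 2 only. Y49E10.36 (55), ZK546.18 (95) and F58D5.12 (88.9) were the next most uneven in rank, though apart by only 5.65, 5.60 and 4.2 percentile points. For Y49E10.36 the entries were at different sites, −77 bp from the 5′ end in replicate 1 and 300 bp in replicate 2. Its difference is thus no measure of how the replicates agree at the same site. Both C17D12.8 and Y71D11A.7, as well as F46F11.12 and ZK546.18, had the box pair.

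Just outside the distance limit, C26C6.13 was 180 bp from a summit with a signal of 326, F54E7.10 was 251 bp from one and B0412.6 was 252 bp from one. Just inside it were R08C7.19, at 145 bp, and M7.15, at 137 bp (signal 256). Most members were not near the limit: 51 of the 57 had a summit within 75 bp, and a limit of 300 bp gave 61 genes.

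The 12 snoRNA genes with a box pair and no summit had boxes of the same kind and spacing as the members. The lines below show this for the 3 with the highest scores, T24H7.6 (35.3, chrII:6248637-6248736, plus strand), Y59E1B.14 (32.4, chrX:1891429-1891528, plus strand) and R166.7 (31.7, chrII:10545310-10545409, minus strand). These 3 were picked after their scores were seen.
T24H7.6: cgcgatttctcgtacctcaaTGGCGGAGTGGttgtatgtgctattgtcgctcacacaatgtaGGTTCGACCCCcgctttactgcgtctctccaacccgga
Y59E1B.14: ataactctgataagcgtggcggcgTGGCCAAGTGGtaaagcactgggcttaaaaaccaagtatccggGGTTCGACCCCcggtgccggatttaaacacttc
R166.7: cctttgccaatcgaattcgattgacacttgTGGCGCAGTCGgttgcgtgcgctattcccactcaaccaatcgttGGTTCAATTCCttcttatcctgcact
T24H7.6 did have a summit in replicate 2's own list, 36 bp upstream with a signal of 90.7, but no entry in the pooled ranked list. It is 1 of 3 snoRNA genes, with Y37E3.20 (50.4) and Y111B2A.36 (40.9) in replicate 1, that were in 1 replicate's list without being members. R166.7 had no entry in the pooled ranked list. Y59E1B.14 had a ranked entry of 40.9 with a −log10 IDR of 0.215, below that of every kept peak. IDR, the irreproducible discovery rate, measures how well peaks repeat between 2 rankings.

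Weak entries were spread over snoRNA genes with and without the pair. Of all 289 snoRNA genes without a summit in the main list, 110 (38.1%) had an entry in the pooled ranked list, which holds 55975 weak and strong entries, namely 5 of the 12 with the pair (41.7%) and 105 of the 277 without it (37.9%). An entry within the same distance was found for 35.1% of all annotated genes without a main-list summit. It was found in 21.1% of genome windows of 432 bp, the median reach of such a snoRNA gene. The snoRNA share was thus near that of all genes, whose lengths were not matched, and above that of windows of similar reach. What this difference comes from was not tested. The highest such signals were 73.1 at B0041.9, in an intron of rpl-4, 71.5 at R12E2.17, in an intron of rpn-8, 64.2 at F28D9.6 and 63.6 at F59G1.14, in an intron of cgt-3. Of these 4 only R12E2.17 had the pair (29.1). Its −log10 IDR was 1.74, and the highest of any snoRNA gene without a summit was 1.88.

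The X chromosome held none of the members. It had 33 snoRNA genes, so that 0 of 33 allows a share of up to 9.09% by the limit of 3 counts and up to 10.6% by the exact 95% interval, and 334 main-list peaks. The autosomes gave 14 of 74 on I, 12 of 71 on II, 7 of 54 on III, 11 of 59 on IV and 13 of 55 on V, or 13.0% to 23.6%. The pair was found on X at 2 of the 33 genes, Y59E1B.14 and C53B7.8 (28.4), and on each autosome at 6 to 14 genes.

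The host classes of the groups had overlapping intervals throughout, which does not show that their shares were equal. Members lay inside a protein-coding gene in 33 of 57 cases (57.9%), against 183 of 289 genes without a summit (63.3%), and outside in 24 (42.1%) against 106 (36.7%). The classical arrangement, an intron of a host on the same strand, held for 20 members (35.1%, 22.9% to 48.9%) and 125 others (43.3%). Introns of a gene on the opposite strand held 9 members (15.8%, 7.48% to 27.9%) and 18 others (6.23%, 3.73% to 9.67%). By class, 9 of 27 snoRNA genes in opposite-strand introns had a summit (33.3%), 24 of 130 outside protein-coding genes (18.5%), 20 of 145 in same-strand introns (13.8%) and 4 of 44 that overlap a host exon (9.09%). The pair was present in 7 of the 9, 17 of the 24, 16 of the 20 and 0 of the 4 members of these classes. Members with both the pair and a summit were thus found in introns of either orientation and outside protein-coding genes.

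Same-strand introns that held members had a median length of 309 bp (quartiles 269 and 646), against 395 bp (229 and 1636) for the others. The snoRNA began a median of 163 bp after the upstream exon (quartiles 114 and 417), against 109 bp (34.0 and 617). Fewer than 120 bp, the length of the scanned window upstream, separated the snoRNA from the exon in 6 of the 20 members and 63 of the 125 others. In those genes the scanned window reached into exon sequence, and the part of this in the lower share of pairs was not tested.

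Members were shorter RNAs. Their median annotated length was 95 bp (quartiles 72 and 133) against 132 bp (106 and 171) without a summit. Lengths of 60 to 79 bp were found in 25 members (43.9%, 30.7% to 57.6%) and 26 others (9.0%). Of the 93 snoRNA genes under 100 bp, 30 had a summit (32.3%), against 27 of 253 longer ones (10.7%). The short members also had the stronger peaks, with a median signal of 304 (quartiles 258 and 394) against 138 (111 and 199). The pair was in 23 of the 30 short and 17 of the 27 long members. Letters of box C, ATGATGA or GTGATGA within the first 25 bases, were in 4 members (7.02%) and 14 others (4.84%), and letters of both box C and box D in 2 (3.51%) and 10 (3.46%). Letters of box D, CTGA within the last 15 bases, were in 23 members (40.4%, 27.6% to 54.2%) and 54 others (18.7%), and an ACA at the usual H/ACA position before the 3′ end was in 15 (26.3%) and 43 (14.9%). The files do not assign the genes to the C/D or H/ACA class, so the classes were not counted.

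A run of TTTT from 5 bp before to 30 bp after the 3′ end was more frequent in members. It was found in 50 of 57 (87.7%, 76.3% to 94.9%), against 159 of 289 without a summit (55%, 49.1% to 60.8%) and 51% of all genes. Among members with the pair it was in 39 of 40 (97.5%), the exception being F30H5.4, and among genes with the pair but no summit in 11 of 12 (91.7%). For comparison, 606 of 612 tRNA genes had it (99.0%). The run therefore went with the pair in genes both with and without a summit.

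**Figure D4:**
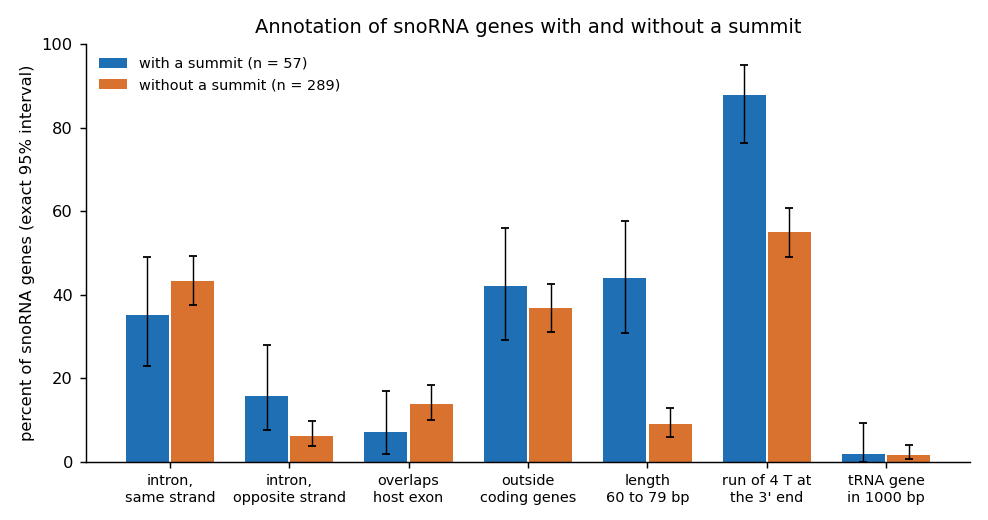
Bars give the percent of 57 snoRNA genes with a summit (left bar of each pair) and of 289 without (right bar) that have each annotated feature, with exact 95% intervals. The intervals stand apart for a length of 60 to 79 bp (43.9% and 9.0%) and for the run of T (87.7% and 55%), and overlap for the 4 host classes and for a neighbouring tRNA gene.

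Annotated tRNA genes did not lie within reach of these summits. No member and no other snoRNA gene had a tRNA gene within 150 bp, and no member summit was within 150 bp of one. Within 1000 bp there was 1 member (1.75%) and 5 others (1.73%). The member was ZK994.7, with the tRNA gene WBGene00023221 at 943 bp. Genes for snRNA, miRNA, rRNA and piRNA were within 150 bp of no member. An annotated ncRNA gene was within 150 bp of 19 members (33.3%, 21.4% to 47.1%), against 34 others (11.8%), and in 8 members such a gene overlapped the boxes themselves. At T08B2.13, among members, and at 2 genes without a summit, F19H8.6 and Y59E1B.14, the boxes overlapped an annotated pseudogene. No box pair overlapped an annotated tRNA gene.

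The letters at the summits set the snoRNA peaks apart from most of the list. Within 50 bp of the summit, on either strand, GTTCGANNC was in 14 of 58 windows at snoRNA genes (24.1%, 13.9% to 37.2%), in 109 of 213 at tRNA genes (51.2%) and in 19 of the other 2144 (0.886%), against 0.749% of genome windows of the same length. Within 25 bp it was in 6.90% of the windows at snoRNA genes, 14.6% at tRNA genes and 0.373% of the others. TGGCNNAG was in 21 (36.2%), 32 (15%) and 113 (5.27%), against 2.90% of the genome. ATCGAT or ATTGAT, which most of the other peaks hold, were in 9 windows at snoRNA genes (15.5%, 7.35% to 27.4%), 10 at tRNA genes (4.69%) and 1582 of the others (73.8%), against 13.2% of the genome. Snippets of the boxes also led among all words of 6 bases: GTTCGA was in 31.0% of the snoRNA windows and 8.36% of the other 2357, and GGCGCA in 29.3% and 5.01%. A box pair on either strand lay within 100 bp of the summit in 41 of 58 snoRNA peaks (70.7%), 206 of 213 tRNA peaks (96.7%) and 45 of the other 2144 (2.10%). The tRNA figure is not independent, as the boxes were built from tRNA genes.

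**Figure D5:**
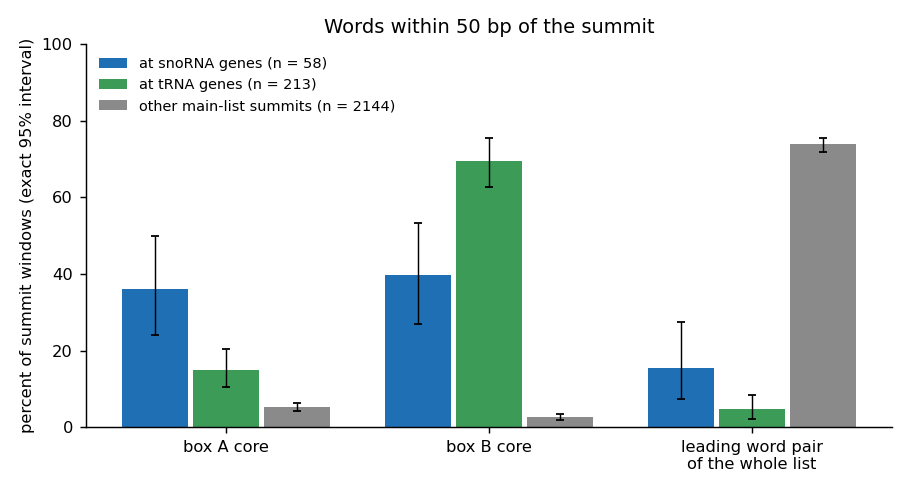
Bars give the percent of summit windows (50 bp either side) that hold the box A core, the box B core GTTCNANNC or the word pair ATCGAT or ATTGAT on either strand, at snoRNA genes (n = 58), at tRNA genes (n = 213) and at the other main-list summits (n = 2144), with exact 95% intervals. The box B core was in 39.7% of the snoRNA windows and 2.71% of the other windows, and the word pair in 15.5% and 73.8%.

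A list of 27 symbols covered proteins that build or process snoRNA particles, together with the transcription factor genes snpc and tbp-1. Of these symbols 20 were found. The others matched no gene name in the annotation and were not searched under other names. Among the 20, 3 had a main-list summit at most 1000 bp upstream or 200 bp downstream of a start, against 6.07% of all protein-coding genes. These were fib-1 (signal 149, 87 bp upstream), which encodes fibrillarin, the methyltransferase of box C/D particles, dkc-1 (146, 170 bp upstream), which encodes the pseudouridine synthase of H/ACA particles, and Y48A6B.3 (92.7, 274 bp upstream). The first 2 were in both replicates' lists and Y48A6B.3 was in neither. The genes nol-58 and ruvb-1 had a summit in replicate 1's list only. The snpc genes, which encode subunits of the snRNA activating complex, had none. With 20 genes, 3 with a summit is a description of those genes and not of the list.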

How the data were processed

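The 2 samples were biological replicates of 1 group, so no test between conditions was possible and no p-value is given. Per the labels, sonicated fragments of 200 to 800 bp were used and peaks are on ce11. Which aligner and peak caller were run is not given in the sources used here; a control alignment entered the calls. In all, 8 peak lists were deposited by the authors: a ranked and an IDR-thresholded list for each replicate, and from both replicates 2 ranked lists and the thresholded main and conservative lists. The deposited signal value of a peak has no unit. The deposited score of each peak, capped at 1000, comes from the IDR, and the deposited −log10 IDR of the ranked lists measures it for every entry. Column roles follow the narrowPeak layout, the values and the notes deposited with the data. The lists give no reads, so the depth and the precision of single peaks are unknown.

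Genes came from Ensembl release 115 and sequence from RefSeq WBcel235; 345 of 346 snoRNA genes had the same coordinates in RefSeq. Distances, shares with exact Clopper-Pearson 95% intervals and words were computed with Python 3.11.15, numpy 2.4.6 and scipy 1.17.1. Boxes were 11 bp wide: bases 8 to 18 for box A and, from the 3′ end, bases 22 to 12 for box B. Named genes were those of the 12 strongest peaks, those within 10 bp of the distance limit or nearest beyond it, the 4 most uneven between replicates and the 4 strongest without a summit. No member met the rules for a tRNA neighbour within 150 bp or for a symbol of its own. Genes named beyond this were picked after their values were seen. The members, lists and words were chosen with earlier results of these data known. The procedures were tested on simulated data with planted summits and boxes. Alternatives were other lists, each replicate alone, other distances and windows, and a stricter box limit.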

Additional observations from a re-analysis of the deposited data

How the results depend on the processing

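Of 42 alternative values, 36 stayed within 1.5 times the reported count, within the exact interval of the reported share or within the spread of the positions, 6 moved further and none reversed. Some of these intervals are wide: a tRNA gene within 5000 bp was found for 5.26% in place of 1.75%. Requiring the summit inside the gene left 2 of the 57 members. Counting hosts on the same strand only gave 42.1% in place of 57.9%. Counting tRNA genes within 150 bp gave 0% in place of 1.75%. Using the ranked in place of the thresholded lists put 94.7% of members in both replicates, in place of 75.4%. The ranked lists of the replicates hold 38917 and 38294 entries, weak ones included. Members were chosen from a list called from both replicates, and the share of other genes in both ranked lists was not counted. Nothing is therefore drawn from this rise. A window of 25 bp gave 6.90% for GTTCGANNC in place of 24.1%. Taking the 5th percentile of tRNA scores as the limit gave the box pair in 47.4% of members in place of 70.2%. For snoRNA genes without a summit it gave 2.42% in place of 4.15%. Like all alternatives of the box pair, this one was chosen after seeing the data. The cause of these shifts was not tested. Leaving out 1 replicate by using the other's own list gave 47 to 52 snoRNA genes, a median position of −47.5 to −45.0 bp, a host in 53.8% to 57.4%, a tRNA gene within 1000 bp in 1.92% to 2.13%, GTTCGANNC in 23.5% to 28.3%, and the box pair in 69.2% to 72.3% of genes with a summit and 5.44% to 6.02% of those without. No paired analysis was possible because there was 1 group. Depth is unknown, so weak sites in either replicate may have been missed.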

Other observations

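Upstream of other small RNA genes the box pair was uncommon but not absent. It was found at 5 of 261 miRNA genes (1.92%), 0 of 129 snRNA genes and 2 of 15363 piRNA genes (0.0130%). Away from annotated snoRNA and tRNA genes, 45 main-list summits had a pair within 100 bp. Of these, 7 were within 150 bp of an annotated ncRNA gene (15.6%), 3 of a pseudogene (6.67%) and 3 of a miRNA gene (6.67%). Among the 2099 such summits without a pair the numbers were 136 (6.48%), 41 (1.95%) and 7 (0.333%). The median signal was 112 with the pair (quartiles 90.6 and 168) and 101 without it (quartiles 81.6 and 143), both below the 199 of summits at snoRNA genes. No test was made of these counts.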
